A study of Homo sapiens with 12 samples.

Results

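The regions described here are accessible regions of BT-549 cells that were strong in vehicle and were no longer called as peaks with doxycycline (DOX). BT-549 cells come from a human breast cancer of the triple-negative type (TNBC), and DU-145 cells, the line used for comparison, from a prostate cancer labelled castration-resistant (CRPC). Both lines carried a tetracycline-inducible short hairpin RNA against MUC1 (tet-MUC1shRNA), and chromatin accessibility was measured by ATAC-seq after 7 days of vehicle (0.1% DMSO) or DOX in 3 replicates per group. BT-549 cells were grown with insulin and DU-145 cells without it, and every group of both lines carried the hairpin construct, so that an effect of silencing MUC1-C cannot be told apart from an effect of DOX itself. Cells with a control hairpin are not analysed here, each cancer is represented by 1 cell line, and the vehicle cells carry both the label of untreated cells and a protocol with DMSO. An autosomal region was a member if it overlapped a peak in all 3 BT-549 vehicle libraries and in none of the 3 BT-549 DOX libraries, and if its highest bin of 100 bp had a mean deposited coverage of at least 30 fragments per base over the vehicle libraries. The 932 members, of 46298 accessible regions in the BT-549 table, were thus chosen by their BT-549 peak calls and vehicle coverage. Since the rule used this contrast, the BT-549 values are a description, and nothing is read from tests of it.

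ATAC-seq reads accessibility from the insertions of the Tn5 transposase, which enters DNA between nucleosomes. Promoters lie at transcription start sites (TSS) and are often accessible in many cell types, whereas enhancers lie at a distance, bind factors such as AP-1, TEAD and RUNX, and differ more between cell types. Interferon-stimulated genes encode antiviral proteins and sensors, and their control regions carry interferon-stimulated response elements (ISREs), which are bound by interferon regulatory factors. MUC1-C is the transmembrane subunit of the MUC1 oncoprotein and has no DNA-binding domain of its own.

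The sequences of 7 regions are shown because they hold either the highest coverage lost or the letters that recur among the members. Each is the plus strand of GRCh38 over 240 bp centred on the highest bin, and each was read outside annotated exons. Capitals mark the AP-1 letters TGAGTCA on either strand or the ISRE core on either strand. The regions near EPM2A and MX1 had the highest vehicle coverage of all members and hold neither motif in this window.
EPM2A region, chr6:145756231-145756470: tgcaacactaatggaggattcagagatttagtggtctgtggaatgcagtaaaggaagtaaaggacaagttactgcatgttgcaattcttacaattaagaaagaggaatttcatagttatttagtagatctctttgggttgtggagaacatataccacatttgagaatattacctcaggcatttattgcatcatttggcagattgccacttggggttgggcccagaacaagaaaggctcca
MX1 region, chr21:41459931-41460170: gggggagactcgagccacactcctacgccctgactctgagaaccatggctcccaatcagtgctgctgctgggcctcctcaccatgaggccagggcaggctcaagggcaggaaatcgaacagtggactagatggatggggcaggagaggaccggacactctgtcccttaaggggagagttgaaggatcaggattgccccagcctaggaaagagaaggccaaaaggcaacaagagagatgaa
The windows near TMEM54, AREG and IFI44L hold the ISRE core. In the TMEM54 window, overlapping matches form a single run of capitals.
TMEM54 region, chr1:32919931-32920170: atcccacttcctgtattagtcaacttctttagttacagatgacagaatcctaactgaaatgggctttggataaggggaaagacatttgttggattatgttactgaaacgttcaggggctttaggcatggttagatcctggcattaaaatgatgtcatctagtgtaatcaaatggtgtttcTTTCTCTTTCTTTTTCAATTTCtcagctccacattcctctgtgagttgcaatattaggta
AREG region, chr4:74531931-74532170: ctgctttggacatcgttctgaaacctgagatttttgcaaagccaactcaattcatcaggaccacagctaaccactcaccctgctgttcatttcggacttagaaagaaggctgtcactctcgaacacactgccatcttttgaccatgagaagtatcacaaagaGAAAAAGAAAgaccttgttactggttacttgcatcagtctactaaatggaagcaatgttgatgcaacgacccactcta
IFI44L region, chr1:78620131-78620370: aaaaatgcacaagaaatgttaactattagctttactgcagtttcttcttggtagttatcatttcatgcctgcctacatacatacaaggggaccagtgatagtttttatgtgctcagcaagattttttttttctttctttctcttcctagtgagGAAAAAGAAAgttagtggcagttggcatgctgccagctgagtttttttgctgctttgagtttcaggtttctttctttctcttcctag
The windows near CDYL and OR6J1 hold the AP-1 letters.
CDYL region, chr6:4664231-4664470: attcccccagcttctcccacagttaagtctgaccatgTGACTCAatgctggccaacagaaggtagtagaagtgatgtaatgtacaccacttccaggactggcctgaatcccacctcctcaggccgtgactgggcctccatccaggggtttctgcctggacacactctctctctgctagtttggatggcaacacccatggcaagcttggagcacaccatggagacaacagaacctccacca
OR6J1 region, chr14:22651231-22651470: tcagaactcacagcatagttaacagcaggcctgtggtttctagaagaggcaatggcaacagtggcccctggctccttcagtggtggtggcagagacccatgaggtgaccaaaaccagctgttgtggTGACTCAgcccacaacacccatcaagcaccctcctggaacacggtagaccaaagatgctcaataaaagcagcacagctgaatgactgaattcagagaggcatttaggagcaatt
A match of these letters is a description and is not a bound site.

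The summed coverage of the accessible bins was 9142900 to 13606129 in the BT-549 vehicle libraries and 2502510 to 3267024 in the BT-549 DOX libraries. It was 12370094 to 25232000 across the DU-145 libraries. The BT-549 DOX libraries were thus the shallowest, and depth moved with the treatment in this line. Its part in the loss of peak calls was not tested. The promoters of the mesenchymal genes VIM, ZEB1, AXL, CDH2 and SPARC were called in all 3 BT-549 vehicle libraries, whereas no accessible region lay within 1 kb of a TSS of ESR1, PGR, CDH1 or EPCAM. The promoter of GATA3, a luminal factor, was called in every BT-549 library. At the MUC1 promoter, the normalized coverage was 108, 144 and 105 in vehicle and 75.2, 104 and 95.2 with DOX. Since the hairpin acts on the MUC1 mRNA, its promoter does not check the silencing.

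Of the 45083 autosomal regions, 17376 were strong, namely called in all 3 vehicle libraries with a highest bin of at least 30. Among these, 932 (5.36%) were called in no DOX library, 889 in 1, 1243 in 2 and 14312 (82.4%) in all 3. In the rest of the text, coverage is normalized to the mean effective library size of BT-549 with TMM factors unless it is called deposited. The highest bin of the members had medians of 24.2, 23.9 and 22.4 in the 3 vehicle libraries and of 6.45, 5.80 and 6.73 in the 3 DOX libraries. In the regions called in all 3 DOX libraries, the medians were 42.1, 42.2 and 39.0 in vehicle and 40, 43.5 and 41.1 with DOX. The median log2 ratio of DOX to vehicle (pseudocount 0.5) was -1.90 over the members, -0.92 over strong regions called in 1 or 2 DOX libraries and 0.03 over those called in all 3. Over all 45083 autosomal regions, it was -0.21. In such bulk libraries, a region open in fewer cells and a region less open in every cell cannot be told apart.

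**Figure D1:**
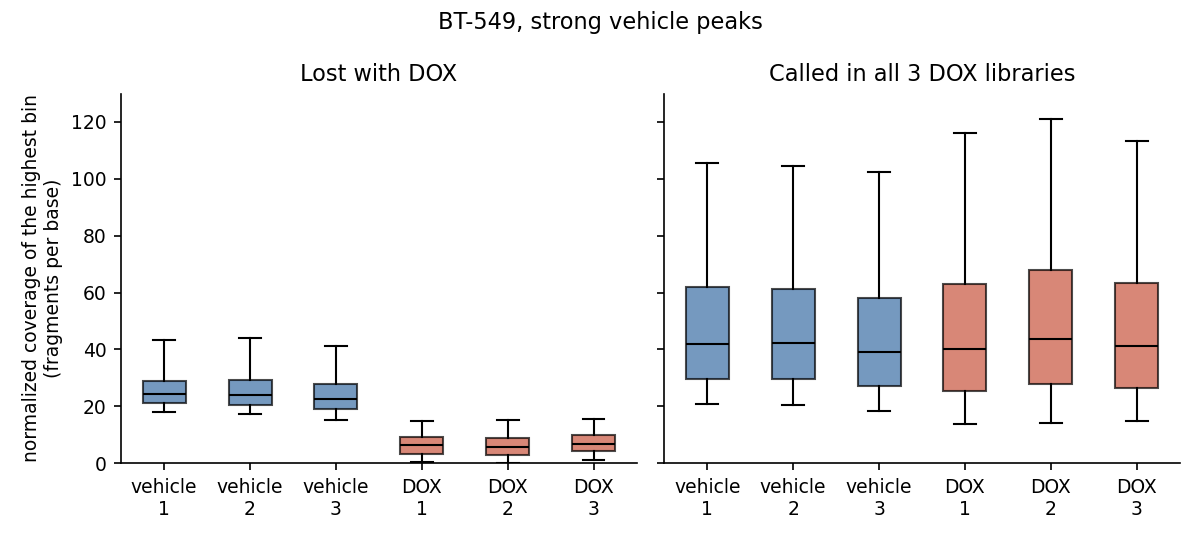
Normalized coverage of the highest bin (fragments per base) in each BT-549 library, for the 932 members (left) and the 14312 strong regions called in all 3 DOX libraries (right); lines show medians, boxes the quartiles and whiskers the 5th and 95th percentiles over regions. The member medians fall from 22.4 to 24.2 in vehicle to 5.80 to 6.73 in DOX, whereas the other regions have medians of 39.0 to 43.5 in all 6 libraries.

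The loss of a peak call did not stand for the same loss of coverage in every region. In 835 members (89.6%), the mean DOX coverage, with the pseudocount, was lower by 2-fold or more, in 410 (44%) by 4-fold or more and in 100 (10.7%) by 8-fold or more. The corresponding shares over all autosomal regions were 19.2%, 4.33% and 0.825%. In 97 members, the ratio did not reach 2-fold, and in 2 the DOX mean was above the vehicle mean. All 3 DOX libraries lay below all 3 vehicle libraries in 887 members (95.2%), whereas the groups were separated in this way in 27.7% of all autosomal regions. By edgeR's quasi-likelihood test over all BT-549 bins, the highest bin was a closing call (fold change of at least 2 and adjusted p under 0.01) in 701 members (75.2%), with 2.85% of all bins called. Since the same contrast chose the members, nothing is read from these shares.

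The member with the largest drop lay near OR6J1, an olfactory receptor gene, at chr14:22650701-22651800. It had 43.3, 39.8 and 35.1 in vehicle and 0, 0.228 and 1.27 with DOX, a log2 ratio of -5.32. The region near TDO2, which encodes a tryptophan-degrading dioxygenase, had 38.1, 47.2 and 49.6 in vehicle and 0, 2.02 and 1.01 with DOX. At the other end, the intronic region in EGFLAM, which encodes an extracellular matrix protein, had 21.4, 24.2 and 15.1 in vehicle and 25.01, 32.2 and 19.6 with DOX. Its groups overlapped, and its log2 ratio was 0.33 although no DOX library had a peak there. The regions near SLC4A3 (0.01), NRXN3 (-0.16) and CAMK1G (-0.16) likewise had log2 ratios near 0. All of these regions were narrow, at 500 to 700 bp, and had vehicle means of 31.1 to 34.5 in deposited coverage, close to the threshold.

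Depth was then set beside the calls. In the 3 DOX libraries, 5% of the called regions had a highest deposited bin below 4.95, 3.98 and 6.03 fragments per base, respectively. In the bin that was highest in vehicle, the members had median deposited coverages of 2.35, 2.04 and 3.08 in these libraries. The medians would be 8.46, 8.15 and 10.6 had their share of the library stayed at the vehicle level. This bin need not be the highest of the region with DOX, so these medians are not on the scale of the limits above. By their own highest bin in each DOX library, between 113 and 164 members reached those limits without a call. The fate of a strong region varied with its vehicle coverage. At a deposited vehicle coverage of 30 to 40, 560 of 3850 regions (14.5%) were lost, at 40 to 60 the count was 291 of 5026 (5.79%), at 60 to 100 it was 74 of 5118 (1.45%), and at 100 or more it was 7 of 3382 (0.207%). The median log2 ratio of the members in these classes was -1.68, -2.12, -2.68 and -4.0. The deposited DOX coverage had medians of 2.47, 2.51 and 2.55 in the first 3 classes. Since a member has no DOX call, its DOX coverage is for the most part low at any vehicle coverage, so the order of the ratios follows from the choice of the members and nothing is read from it.

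**Figure D2:**
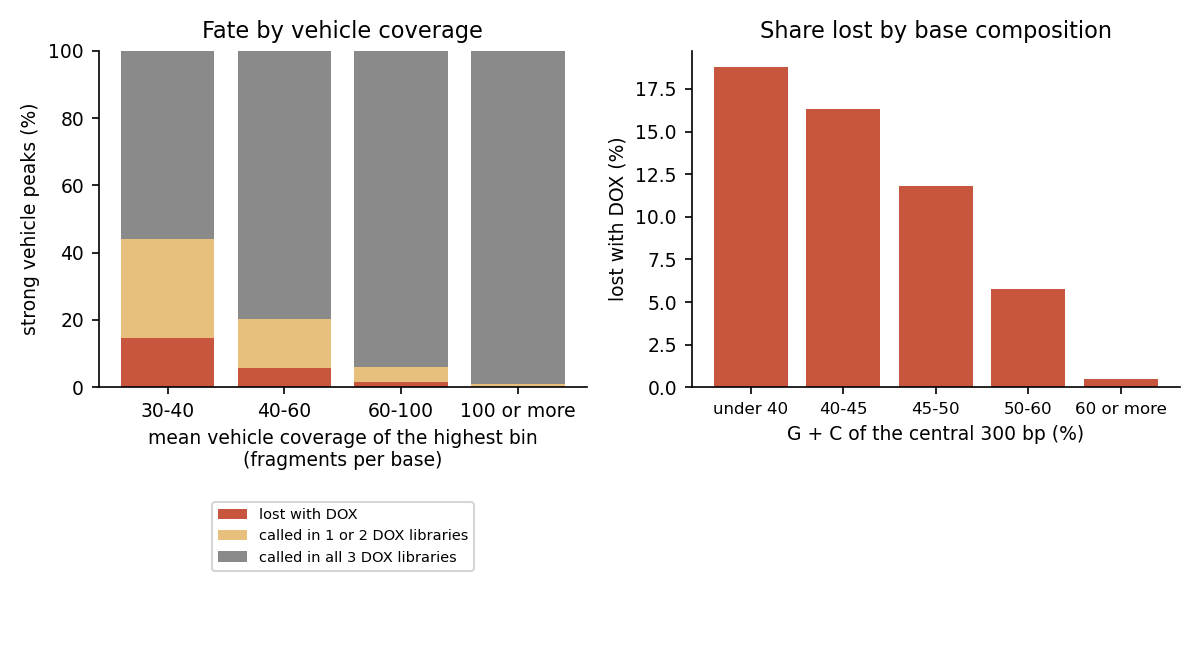
Strong BT-549 vehicle peaks by their fate with DOX. The left panel shows the percentage lost, called in 1 or 2 DOX libraries or called in all 3, by deposited vehicle coverage of the highest bin (fragments per base), with 14.5% lost at 30 to 40 and 0.207% at 100 or more. The right panel shows the percentage lost by G + C content of the central 300 bp, with 18.8% lost under 40% and 0.472% at 60% or more.

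The threshold of 30 has no natural gap. The members just inside it lay near ZNF639 (30 in deposited vehicle coverage) and GPRIN3 (30.01), and their log2 ratios were -1.44 and -1.40. The regions just outside it lay in CSGALNACT1 (29.98) and ARHGEF10 (29.97), and their log2 ratios were -1.28 and -2.04.

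The 8 members with the highest vehicle coverage were examined one by one. Regions are named after the nearest protein-coding TSS, which does not assign them to that gene. The highest lay between genes, 20327 bp from a TSS of EPM2A, which encodes the glycogen phosphatase laforin. This region at chr6:145755501-145756900 had 99.3, 91.4 and 101.4 in vehicle and 2.96, 5.69 and 0.920 with DOX, so that 97.4 ± 5.3 (SD, n = 3) became 3.19 ± 2.39 (SD, n = 3). The log2 ratio was -4.73, which is 26.5-fold lower with the pseudocount. Its peaks had a fold enrichment over the local background of 61.9 to 70.7 in the vehicle libraries.

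The next was an intronic region of MX1, which encodes an interferon-induced GTPase that blocks RNA viruses. It spanned chr21:41457601-41462800, and its highest bin had 79.6, 80.2 and 72.4 in vehicle and 8.08, 1.05 and 1.14 with DOX. The DOX replicates differed here by more than the vehicle replicates did in ratio, yet all lay far below vehicle. A region 41809 bp from CDYL, a chromodomain gene, had 71.0, 84.7 and 71.5 in vehicle and 10.4, 3.21 and 2.19 with DOX. The region near TMEM54 had 71.6, 86.7 and 66.1 in vehicle and 4.93, 4.61 and 1.10 with DOX. Its ISRE matches numbered 3 within 300 bp.

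An intronic region of NRG3, which encodes a ligand of the receptor ERBB4, lay 143008 bp from the TSS. It had 77.1, 72.4 and 65.0 in vehicle and 4.49, 6.51 and 9.02 with DOX. The region near NCEH1, a cholesterol ester hydrolase gene, had the weakest ratio of these 8, with 69.6, 75.7 and 65.1 in vehicle and 11.8, 13.6 and 5.04 with DOX, a log2 ratio of -2.73. The region 141790 bp from HAS2, a hyaluronan synthase gene, had 58.9, 64.6 and 65.8 in vehicle and 4.85, 2.11 and 3.48 with DOX. In none of these regions did the groups overlap. The last of the 8 lay at chr5:132463601-132465000 within IRF1, the gene of an interferon-regulated transcription factor. It had 54.7, 64.1 and 58.4 in vehicle and 1.62, 1.56 and 2.93 with DOX, and it held 2 ISRE matches within 300 bp.

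Genes of the interferon response recurred among the members. Of the 46 genes of a list of type I interferon and antiviral genes, 15 were the nearest protein-coding gene of at least 1 member, and 17 members (1.82%) lay nearest to a gene of the list. Of the strong regions called in all 3 DOX libraries, 32 (0.224%) did so, and of all autosomal regions 186 (0.413%). Among these genes were BST2, GBP2, IFI44, IFI44L, IFIT2, IFIT3, IFNB1, IRF1, MX1, OAS1, OAS2, OASL, RIGI and RSAD2. With a region that overlaps IFIT3 but lies nearest to LIPA, 18 members lay at or near such genes, and their median log2 ratio was -3.36, against -1.90 over all members. The regions of this list other than those at MX1, IRF1, RSAD2 and LIPA were added after their values were seen.

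Many of these members lay at a TSS. At BST2, which encodes the virus-tethering protein tetherin, a region 20 bp from the TSS had 26.7, 29.4 and 20.3 in vehicle and 0.603, 0 and 1.69 with DOX, 20.6-fold lower with the pseudocount. At RSAD2, which encodes viperin, the region had 43.3, 39.2 and 38.0 in vehicle and 4.14, 4.41 and 9.13 with DOX. The promoters of OAS1 and OASL, which belong to the family of oligoadenylate synthetases, had log2 ratios of -2.25 and -1.93. At OAS1 the values were 23.2, 29.1 and 23.3 in vehicle and 5.89, 5.72 and 3.09 with DOX. At the OASL promoter they were 26.5, 28.9 and 20 in vehicle and 5.48, 8.42 and 4.77 with DOX.

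The promoter of GBP2, a guanylate-binding protein gene, had 26.04, 29.8 and 20.2 in vehicle and 7.34, 3.16 and 6.55 with DOX. The IFI44L promoter region at chr1:78619201-78621100 had 28.4, 33.0 and 19.5 in vehicle and 5.48, 0 and 4.58 with DOX, and it held 2 ISRE matches. The IFIT3 promoter region had 15.6, 20.1 and 21.5 in vehicle and 0, 2.85 and 2.39 with DOX. IFIT3 belongs to the interferon-induced proteins with tetratricopeptide repeats, and its region also held 2 ISRE matches. In the interferon regions named in these sentences, no DOX value reached the lowest vehicle value.

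Of the 45 list genes with an accessible region at the gene or within 1 kb of it, all had a promoter called in all 3 vehicle libraries. In 26 of them, a promoter region was still called in all 3 DOX libraries, and in 8 it was called in none. Over all autosomal protein-coding genes with such a promoter, these shares were 85.2% and 4.43%. The promoters called in no DOX library included those of BST2, GBP2, IFI44, IFI44L, OAS1 and OASL, and also those of IFI35 and MX2, which had no strong region. At MX1, RSAD2, IFIT3 and IRF1, at least 1 promoter region was called in all 3 DOX libraries while another region of the gene was lost. The genes of the receptor subunits IFNAR1 and IFNAR2 and of the signalling proteins STAT2, IRF3, IRF9, MAVS and TBK1 had no member, and their promoters were called in all 6 libraries. IFNB1, which encodes interferon beta, had no accessible region at the gene itself. The members nearest to it lay 7692 and 18508 bp away and had log2 ratios of -2.50 and -2.16.

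Some of these regions were wide. The median width of the members was 900 bp, against 1500 bp for the strong regions called in all 3 DOX libraries. Only 13 members (1.39%) were wider than 3 kb, against 6.11% of the regions called in all 3 DOX libraries and 2.21% of all autosomal regions. A gene of the interferon list was overlapped by 6 of these 13, by 7 of the 875 wide regions called in all 3 DOX libraries (0.800%) and by 20 of all 998 wide autosomal regions (2%). The width of these 13 regions was noted after their values were seen. The widest, of 9500 bp, lay within ACO1 at chr9:32428001-32437500, and its mean over all bins was 13.4, 14.8 and 14.0 in vehicle and 3.17, 1.05 and 3.38 with DOX. The region of 5300 bp at IFIT2 had means of 17.3, 15.3 and 17.1 in vehicle and 1.31, 0.527 and 1.51 with DOX.

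In the MX1 region, the mean over all 52 bins was 26.5, 29.3 and 26.7 in vehicle and 3.0, 2.15 and 2.46 with DOX. The region of 5900 bp that overlaps both LIPA and IFIT3 had 17.0, 19.1 and 18.7 in vehicle and 1.96, 1.43 and 2.65 with DOX. The mean over the whole region was thus lower as well as its highest bin. Outside the list, a region of 5300 bp overlapped ZC3HAV1, which encodes the zinc-finger antiviral protein, with means of 12.7, 13.4 and 12.8 in vehicle and 2.67, 1.14 and 1.68 with DOX. A region of 5200 bp near PLSCR1, a phospholipid scramblase gene, had 11, 10.9 and 11 in vehicle and 2.93, 1.27 and 2.33 with DOX. Among the wide regions named here, the log2 ratio of the means ran from -3.40 at IFIT2 to -1.16 at HSPA9, a mitochondrial chaperone gene. An IFI44 region (-1.50) lay near the upper end, as did the region at MARS1 and DDIT3 (-1.74), whereas the region near PNRC1, which is not in the list, had -2.75.

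**Figure D3:**
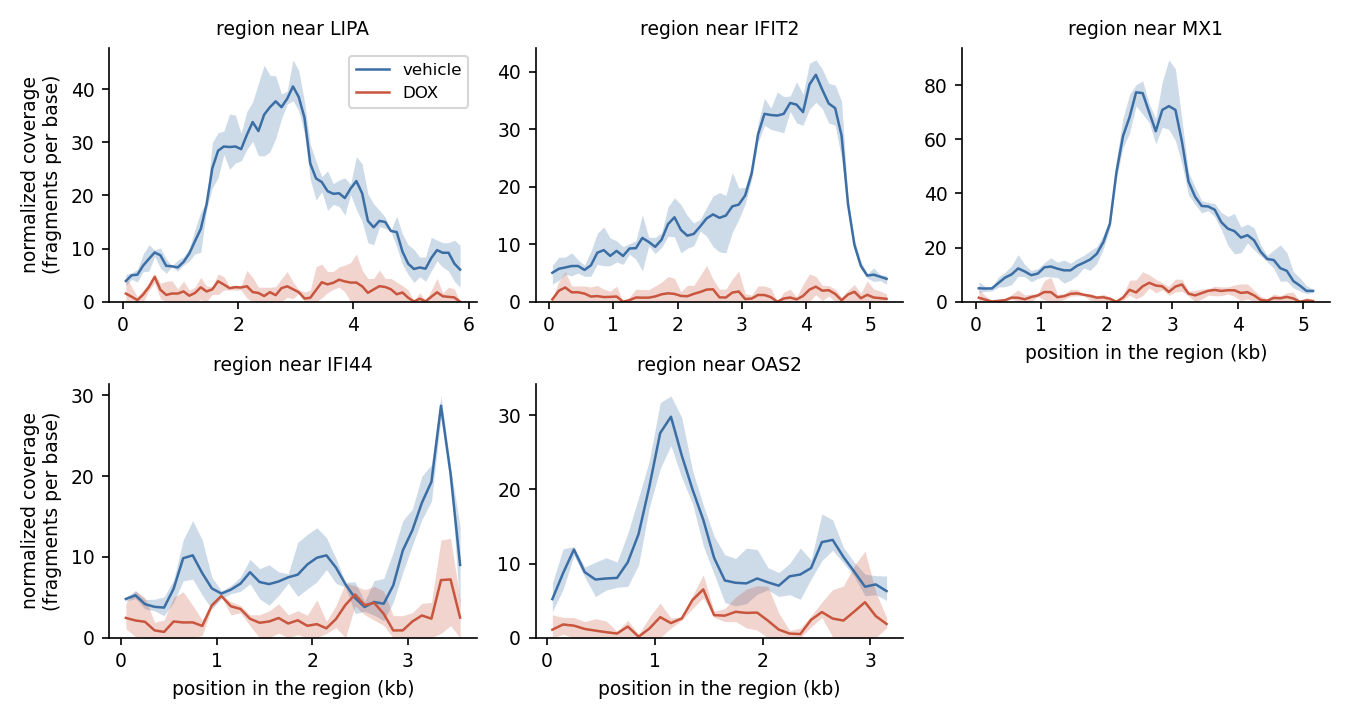
Normalized coverage (fragments per base) along 5 wide members that overlap interferon genes, against the position in the region (kb); lines are means of 3 replicates and bands run from the lowest to the highest replicate. The mean vehicle coverage reaches 77.4 in the MX1 region, and it lies above the DOX mean in every bin except for 2 bins of the IFI44 region; the bands overlap mainly in the IFI44 and OAS2 regions.

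The other lists had few members. The AP-1 subunit genes and the genes of the NOTCH pathway had none, and their shares of all autosomal regions were also low, at 0.157% and 0.169%. The lists of cytokines and NF-kB (1 member), breast lineage factors (2), Hippo (3), integrins (4) and cell polarity (4) had shares of 0.107% to 0.429% of the members, against 0.184% to 0.399% of all autosomal regions. The TGF-beta list had 5 members (0.536%, against 0.552% of all regions), and the lists of cadherins and EMT factors, extracellular matrix, and enhancer-binding factors had 6 each (0.644%). The lists of growth factor receptors and axon guidance had 5 each (0.536%, against 0.743% and 0.535% of all regions). The share of the cadherins and EMT factors was 0.319% over all autosomal regions, and those of the matrix and enhancer-factor lists were 0.634% and 0.723%. Near WWC1, which encodes the Hippo scaffold KIBRA, the region had 36.5, 41.2 and 49.8 in vehicle and 3.18, 2.08 and 4.18 with DOX. A region in BMPR1B, a receptor gene for bone morphogenetic proteins, had 23.8, 34.0 and 25.2 in vehicle and 5.10, 5.86 and 3.44 with DOX.

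At TNC, which encodes the matrix protein tenascin-C, both the promoter and a region 27146 bp away were members. The promoter had 25.7, 30.3 and 24.8 in vehicle and 7.53, 0 and 6.50 with DOX. The distal region had 24.1, 37.4 and 19.9 in vehicle and 12.3, 15.3 and 22.3 with DOX, and its groups overlapped. The 2 members near ROBO1, an axon guidance receptor gene, also differed in depth of loss, with log2 ratios of -2.63 and -0.80. The other regions named from these lists, apart from that of OSMR, ran from -2.52 at NR3C1, the glucocorticoid receptor gene, to -0.82 near PRKCI, which encodes an atypical protein kinase C. In the regions at ILK (-0.98), TFAP2A (-0.87) and PRKCI, the difference did not reach 2-fold.

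The members lay mostly away from promoters. Within 3 kb of a TSS were 190 members (20.4%), in introns 400 (42.9%), between genes 323 (34.7%) and in exons 19 (2.04%). Of the strong regions called in all 3 DOX libraries, 75.3% lay within 3 kb of a TSS, and of all autosomal regions 49.4%. Beyond 3 kb, 742 of 5692 strong regions (13.0%) were lost, whereas within 3 kb the count was 190 of 11684 (1.63%), and within 1 kb of a protein-coding TSS it was 58 of 9661 (0.600%). Neither these shares nor those by base composition and motif below were matched for vehicle coverage, with which the share lost also varied. The median vehicle coverage of the highest bin was 23.2 in the members and 41 in the strong regions called in all 3 DOX libraries. The median distance of the members to a protein-coding TSS was 29767 bp, and 364 (39.1%) were 50 kb or more away. Of the 826 members more than 3 kb from a protein-coding TSS, 681 (82.4%) were nearest to a gene whose promoter was called in all 3 vehicle libraries. In 612 of these 681 (89.9%), that promoter was also called in all 3 DOX libraries, and in 13 (1.91%) it was called in none. These shares lay close to those for all autosomal regions beyond 3 kb, at 88.5% and 3.21%. Over all autosomal protein-coding genes with a promoter called in all 3 vehicle libraries, they were 85.2% and 4.43%.

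Among the promoters of high vehicle coverage outside the interferon genes was that of MARCHF1, a ubiquitin ligase gene. It had 39.6, 33.4 and 37.8 in vehicle and 2.58, 11.4 and 8.91 with DOX. No DOX value reached the lowest vehicle value.

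The losses were scattered along the genome. The share of strong regions lost ranged from 1.2% on chromosome 19 (10 of 835) to 8.71% on chromosome 4 (70 of 804). The members had 791 different nearest genes, of which 679 had a single member, and PCDH7, PTBP2, TENM2 and TNS3 had 4 each. Another member lay within 50 kb for 140 members (15.0%), in 63 groups. A strong region called in all 3 DOX libraries lay within 50 kb of 474 members (50.9%), and the median distance to the nearest DOX peak was 14253 bp.

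The largest group within 50 kb steps held 4 members from chr7:50418101-50493400, between IKZF1 and DDC. IKZF1 encodes a lymphoid transcription factor and DDC encodes aromatic L-amino acid decarboxylase. Their log2 ratios were -1.65 near IKZF1, -1.85 near FIGNL1 and -3.14 and -2.45 in DDC. The groups of 3 members included those at IFI44L and IFI44 on chromosome 1, at IFIT2, IFIT3 and LIPA on chromosome 10 and near VEGFA, the gene of a vascular growth factor, on chromosome 6.

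Base composition moved with the loss. The median G + C content of the central 300 bp was 44.7% in the members, 64.0% in the strong regions called in all 3 DOX libraries and 53.0% in all autosomal regions. Beyond 3 kb of a TSS, the medians were closer, at 44%, 48.0% and 46.3%. Strong regions under 40% G + C were lost in 18.8% of cases and had a median log2 ratio of -0.82 as a whole, whereas those of 60% or more were lost in 0.472% and had a median of 0.07. Among the members, the median log2 ratio varied little with composition, from -1.95 at 40% to 45% to -1.89 at 50% to 60%, and was -1.45 in the 44 members of 60% or more. With the GC trend of each library removed, the median over the members was -1.63 in place of -1.90, and this correction was chosen after seeing the data.

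The sequence of 300 bp around each highest bin was searched on both strands for 19 motifs. The AP-1 letters TGAGTCA were found in 320 members (34.3%, 95% Wilson interval 31.4% to 37.4%), in 15.1% of the strong regions called in all 3 DOX libraries and in 17.5% of all autosomal regions. Beyond 3 kb of a TSS, the order changed, with 34.0% in the members, 41.7% in the regions called in all 3 DOX libraries and 25.6% in all regions. AP-1 letters were thus frequent at distal members but more frequent at the distal strong regions that kept their peaks. Of the 320 members with AP-1 letters, 184 (57.5%) held the closest match within 50 bp of the centre of the highest bin. The median log2 ratio was -1.76 with the AP-1 letters and -1.94 without them.

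The ISRE core was found in 89 members (9.55%), in 3.08% of the regions called in all 3 DOX libraries and in 5.07% of all autosomal regions. Beyond 3 kb of a TSS, the shares were 9.16%, 4.39% and 6.45%. Unlike the AP-1 letters, the ISRE core was thus more frequent in the members in both counts. The core is rich in A and T, and members with it had a median G + C content of 42.0%, against 45% without it. The median log2 ratio was -2.14 with the core and -1.87 without it. Of the 18 members at interferon genes, 8 held it. The part of base composition in these shares was not tested.

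The RUNX letters TGTGGTTT were found in 7.08% of the members, 2.47% of the regions called in all 3 DOX libraries and 3.44% of all regions, and in 7.95%, 6.77% and 5.03% beyond 3 kb of a TSS. The TEAD letters ACATTCC were found in 8.05%, 4.50% and 5.42%, and beyond 3 kb in 8.63%, 10.5% and 7.38%. The CTCF motif was found in 3.97%, 4.23% and 7.65%, and was thus less frequent in both groups of strong regions than in all regions. The promoter-type letters GGGCGGGG (SP/KLF) were found in 1.82%, 28.4% and 13.3%, and CCGGAAG (ETS) in 1.39%, 14.3% and 6.33%. The SNAI/ZEB letters CAGGTG were found in 8.58%, 15.2% and 18.8%.

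**Figure D4:**
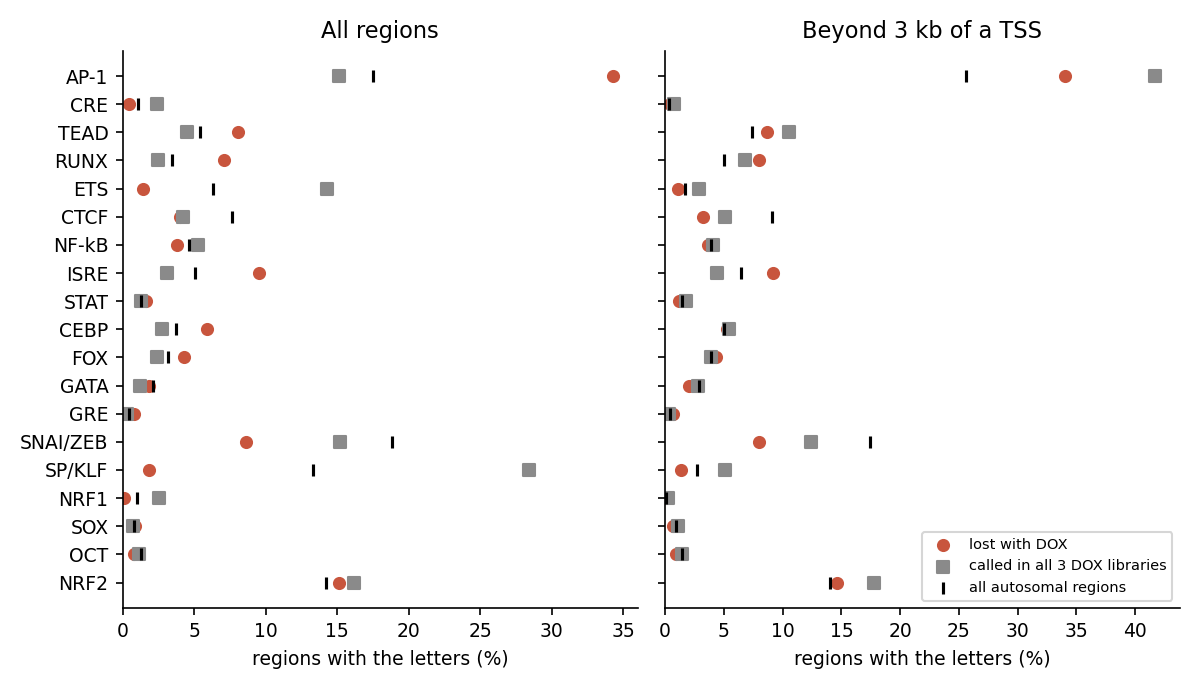
Percentage of regions with each motif within 300 bp of sequence centred on the highest bin, for all regions (left) and for those beyond 3 kb of a TSS (right). Red circles are the members, grey squares the strong regions called in all 3 DOX libraries and black bars all autosomal regions; AP-1 stands at 34.3% in the members, and its order against the grey squares turns beyond 3 kb.

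DU-145 cells gave values that the rule did not use. A DU-145 vehicle peak overlapped 50.1%, 56.7% and 48.3% of the members in the 3 libraries, and a DU-145 DOX peak 55.2%, 57.1% and 55.8%. The corresponding ranges over all 6 libraries were 90.5% to 93.3% for the strong regions called in all 3 BT-549 DOX libraries and 62.5% to 72.3% for all autosomal regions. All 6 DU-145 libraries had a peak in 382 members (41.0%), and none had one in 319 (34.2%). A peak in all 3 DU-145 vehicle libraries and in no DU-145 DOX library, the pattern that defined the members in BT-549, was found in 14 members (1.5%), against 0.317% of all autosomal regions. The reverse pattern was found in 17 members (1.82%), against 2.31%.

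The DU-145 table held a bin within 200 bp of the highest bin of 512 members (54.9%), at the same position for 506. By edgeR's quasi-likelihood test over all DU-145 bins, 141 of these 512 (27.5%) were lower with DOX and 98 (19.1%) were higher at an adjusted p under 0.05, and 273 were not called. Over all DU-145 bins, 16.0% were lower and 19.1% were higher. The highest bins of all autosomal BT-549 regions with a DU-145 bin are a closer reference than all bins, and of these 32.9% were lower and 13.7% higher. Among them, the strong regions called in all 3 BT-549 DOX libraries were lower in 57.4% and higher in 8.2%. The strong regions called in 1 or 2 BT-549 DOX libraries were lower in 24.7% and higher in 17.7%. With the study's cutoff (fold change of at least 2 and adjusted p under 1e-05), 41 members (8.01%) were lower and 25 (4.88%) higher, against 1.83% and 4.58% of all autosomal regions with a DU-145 bin and 2.14% and 4.10% of all bins. Of the strong regions called in 1 or 2 BT-549 DOX libraries, 3.63% were lower and 5.92% higher at this cutoff. The median log2 fold change of the members was -0.07, against -0.21 over all autosomal BT-549 regions. It was -0.12 over the strong regions called in 1 or 2 BT-549 DOX libraries. The balance of the members' calls depended on the scaling and on the test, and the balance over all DU-145 bins, which was 113338 lower and 135534 higher, moved as well. With library totals, 113 members were lower and 125 higher, against 83626 and 161398 of all bins, and the median over all bins moved from 0.07 to 0.20. With loess offsets, 99 members were lower and 110 higher, against 85222 and 104670 of all bins. With the GC trend removed, 167 members were lower and 64 higher, against 108489 and 109870 of all bins. By limma in place of edgeR, 109 members were lower and 130 higher, against 83458 and 170264 of all bins. By DESeq2, the test the study used, 94 members were lower and 55 higher, against 63955 and 63617 of all bins. At the study's cutoff, DESeq2 called 6430 bins lower and 6517 higher, whereas edgeR called 15151 and 29049.

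The distribution of the DU-145 changes was wider for the members than for all regions. The middle 50% of the members lay between -0.55 and 0.41 in log2 fold change, against -0.50 and 0.23 over all autosomal regions and -0.58 and -0.15 over the strong regions called in all 3 BT-549 DOX libraries. Over those called in 1 or 2, it lay between -0.45 and 0.33. The median DU-145 vehicle coverage of these bins was 27.2 in the members, 41.6 in all autosomal regions and 113 in the strong regions called in all 3 BT-549 DOX libraries. The part of coverage in the width was not tested. All 3 DU-145 DOX libraries were below all 3 vehicle libraries in 165 of the 512 members (32.2%), against 38.1% of all autosomal regions with a DU-145 bin. They were above all 3 vehicle libraries in 122 members (23.8%), against 16.9%. In the strong regions called in 1 or 2 BT-549 DOX libraries, these shares were 31% below and 20.9% above.

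**Figure D5:**
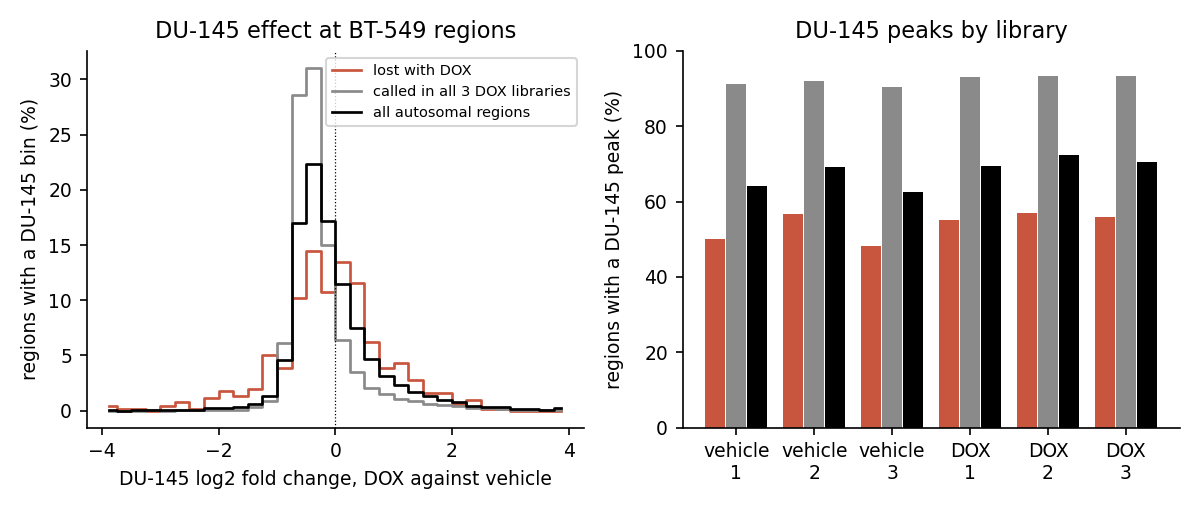
Left, log2 fold change of DOX against vehicle in DU-145 at the BT-549 regions with a DU-145 bin, as the percentage of regions per step of 0.25; right, percentage of regions with a DU-145 peak in each DU-145 library. Red are the members, grey the strong regions called in all 3 BT-549 DOX libraries and black all autosomal regions; the members spread to both sides of 0 with a median of -0.07, and 48.3% to 57.1% of them hold a DU-145 peak.

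The decreases with the smallest adjusted p in DU-145 were large. Near CCR4, a chemokine receptor gene, at chr3:32913601-32914900, the DU-145 values were 88.7, 95.9 and 72.9 in vehicle and 6.03, 5.38 and 13.8 with DOX, normalized to DU-145. This gave a log2 fold change of -3.37 (SE 0.23), with an edgeR adjusted p of 4.84e-22. In BT-549, this region had 23.4, 23.2 and 24.6 in vehicle and 1.01, 4.69 and 0.985 with DOX. Near NAV1, which encodes a microtubule-associated neuron navigator, DU-145 had 201, 184 and 180 in vehicle and 67.3, 56.2 and 49.2 with DOX, a log2 fold change of -1.73 (SE 0.13, edgeR adjusted p = 4.56e-19).

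The region 62508 bp from OSMR, the oncostatin M receptor gene, had 225, 190 and 175 in DU-145 vehicle and 63.2, 46.9 and 68.3 with DOX, a log2 fold change of -1.74 (SE 0.14, edgeR adjusted p = 9.57e-19). Near KCTD12, which encodes an auxiliary subunit of GABA-B receptors, the DU-145 log2 fold change was -1.84 (SE 0.15), and near BID, a gene of the BCL-2 family, it was -1.78 (SE 0.16). At NAV1, OSMR, KCTD12 and BID, 1 match of the AP-1 letters lay within 300 bp, whereas the CCR4 and EPM2A regions held none. Over all members, 34.3% held these letters, and a link between them and the DU-145 change was not tested. The EPM2A region, the strongest member, was also lower in DU-145, with 19.5, 28.6 and 33.5 in vehicle and 7.60, 4.41 and 4.795 with DOX (log2 fold change -2.29, SE 0.32, edgeR adjusted p = 9.95e-09). In each of these regions the groups were separated in both lines.

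Other members moved the opposite way in DU-145. At MGAT4C, a glycosyltransferase gene, DU-145 had 13.0, 9.48 and 11.4 in vehicle and 73.8, 45.2 and 59.0 with DOX, a log2 fold change of 2.36 (SE 0.25, edgeR adjusted p = 4.50e-13). In BT-549, the same region had 18.0, 18.1 and 20.9 in vehicle and 2.88, 5.32 and 17.4 with DOX, with DOX replicate 3 close to vehicle. Near RARRES1, a retinoid-responsive gene, at chr3:158709301-158710300, BT-549 had 53.2, 54.4 and 53.1 in vehicle and 8.05, 2.85 and 7.58 with DOX. DU-145 had 18.9, 9.91 and 11.9 in vehicle and 53.0, 44.9 and 52.9 with DOX at this region, a log2 fold change of 1.96 (SE 0.24, edgeR adjusted p = 1.52e-10). Increases in DU-145 were also called near BPNT2 (log2 fold change 2.08, SE 0.22), CYRIB (1.47, SE 0.17) and SNTB1 (2.16, SE 0.27). The RARRES1 region held 1 match of the AP-1 letters within 300 bp, and the MGAT4C, BPNT2, CYRIB and SNTB1 regions held none.

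Of the 18 members at or near interferon genes, 10 had a DU-145 bin, and of these 4 were lower with DOX at an edgeR adjusted p under 0.05 and the other 6 were not called, and the median log2 fold change was -0.23. Over all autosomal BT-549 regions with a DU-145 bin, 32.9% were lower and the median was -0.21. At the OASL promoter, DU-145 had 67.7, 59.4 and 64.1 in vehicle and 40.4, 40.8 and 40.1 with DOX (log2 fold change -0.62, SE 0.17, edgeR adjusted p = 0.00199). At the OAS1 promoter, it had 21.2, 17.3 and 7.22 in vehicle and 9.34, 6.76 and 7.59 with DOX, and these groups overlapped although the bin was called (log2 fold change -1.01, SE 0.34, edgeR adjusted p = 0.0146). At the IFIT3 promoter, it was lower by a log2 fold change of -0.91 (SE 0.35, edgeR adjusted p = 0.0367). The regions at RSAD2 (0.29, SE 0.30) and IFIT2 (0.67, SE 0.50) were not called, at edgeR adjusted p of 0.509 and 0.345. No DU-145 bin lay within 200 bp of the highest bin of the MX1, IRF1 and BST2 regions.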

How the data were processed

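ATAC-seq was measured in 12 libraries, with 3 replicates of vehicle and DOX in BT-549 and DU-145 cells. Per the study's methods, a library was made from 50000 cells, reads were aligned to GRCh38 with bwa-mem, duplicates were removed with Picard, and peaks were called per replicate with MACS2 (2.2.7.1 in the submitters' processing notes; q-value cutoff 0.05). The authors merged peaks, kept regions detected in at least 3 replicates and deposited, for each bin of 100 bp, an estimated count, namely the mean number of fragments per base, not scaled for depth. In the peak lists, the authors give a fold enrichment and a −log10 q-value, as MACS2 writes them.

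From these, a region was taken as called in a library where it shared at least 1 bp with a peak. Bin values were rounded and tested per line with edgeR 4.0.16 (R 4.3.3; quasi-likelihood, robust, TMM, Benjamini-Hochberg over all bins with a total of at least 10). The design assumed counts, and the deposited values are fractional. A standard error is the log2 fold change divided by the square root of F. Of these steps, the edgeR fit was tested on simulated whole counts drawn from DU-145 bins, which does not test it on fractional coverage. Placement used GENCODE v44. Intervals cover counting error only. The replicates are given as biologically independent by the study's methods. Same-numbered replicates were not paired in the data.

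The members and the gene and motif lists were chosen with earlier results of these data known. Named regions were those of highest vehicle coverage (8), of lowest and highest ratio (4 each), promoters (4), DU-145 calls (5 per direction), 2 per gene list, the neighbours of the threshold and the largest group, some of which are not reported here, and some list regions are given by their range. Alternatives were other scalings, filters, thresholds and windows, DESeq2 1.42.0, limma 3.58.1, a replicate block and leaving out each library. The GC correction and the runs without wide members were chosen after seeing the data.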

Additional observations from a re-analysis of the deposited data

Results flagged for a closer look

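In 116 of the 512 members with a DU-145 bin, all 3 DOX libraries lay above all 3 vehicle libraries in DU-145 and below them in BT-549, so that the lines moved in opposite directions, whereas 152 were lower without overlap in both lines. Among the regions without overlap and lower in BT-549, the opposite pattern made up 24.4% of the members and 22.2% of all autosomal regions with a DU-145 bin, and the shared decrease 32% and 30.7%. The BT-549 difference belongs to the choice of the members, and the difference between the lines was not tested. Regardless of BT-549 separation, DU-145 DOX lay above vehicle in this way in 23.8% of the members and in 16.9% of all autosomal regions with a DU-145 bin. In the strong regions called in 1 or 2 BT-549 DOX libraries, the share was 20.9%. The margin in BT-549 varied among these members. At MGAT4C, the highest DOX value was 17.4 against a lowest vehicle value of 18.0, whereas near RARRES1 the highest DOX value was 8.05 against a lowest vehicle value of 53.1.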

How the results depend on the processing

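The number of members followed its thresholds. It was 2924 with a coverage minimum of 20 and 160 with a minimum of 50, and 932 to 986 with a stricter q-value or 100 bp of overlap. Leaving out each library in turn gave 678 to 1421. The count without DOX replicate 2 was 1421, over 1.5 times the main count, against 1111 without DOX replicate 1 and 1153 without DOX replicate 3. DOX replicate 2 had 25446 called regions, against 22829 and 22554 in DOX replicates 1 and 3, and what set its count apart was not tested. The median log2 ratio of the members stayed between -1.95 and -1.82 without each library, and was -1.68 with a pseudocount of 2, -1.76 with loess offsets, -1.63 with the GC trend removed and -1.50 over all bins of the region. In BT-549, the closing calls numbered 13472, and 12290 with the replicate block.

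In DU-145, decreases at the members numbered 94 (DESeq2) to 167 over the other settings at an adjusted p under 0.05, and 41 at the study's cutoff. Increases outnumbered decreases with limma (130 against 109), loess offsets (110 against 99) and library totals (125 against 113). Increases numbered 64 with the GC trend removed, 55 by DESeq2 and 25 at the study's cutoff, and 72 to 100 without each library. Of all 709226 DU-145 bins, 63955 were lower and 63617 higher by DESeq2. With the replicate block, 146 were lower and 99 higher. Same-numbered replicates share only a number, with correlations of their deviations of -0.0532 to 0.083. The share of members with a DU-145 vehicle peak was 51.6% to 51.7%. The share beyond 3 kb of a TSS was 79.6%, 88.6% with protein-coding TSSs only and 90.1% beyond 1 kb. The AP-1 share was 19.0% within 100 bp and 38.1% within 500 bp. Of 140 single values in DU-145, all kept their direction and call. These values came only from the regions named above for their DU-145 calls. In the main setting, the edgeR adjusted p of these regions ran from 4.84e-22 near CCR4 to 2.07e-10 near SNTB1. Keeping the call was thus nearly fixed by that choice, and nothing is read from it. The weaker calls at the OASL, OAS1 and IFIT3 promoters were not tested in this way. Of 48 single values in BT-549, 40 moved by less than the replicate spread and none was reversed. The low depth of the BT-549 DOX libraries limits what can be said of residual coverage.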

Other observations

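On chromosome X, which the rule left out, 38 of 495 strong vehicle peaks were called in no BT-549 DOX library. On the autosomes, 15686 regions were called in all 3 vehicle and in no DOX library before the coverage threshold was applied, and the members are the 932 of these with the highest vehicle coverage.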
